A study of Mus musculus with 31 samples.

Results

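The comparison covered MC-38 tumors 12 h after radiation against MC-38 tumors 3 h after radiation, 4 mice each, which are 8 of the 31 libraries of the series. Membership followed the labels alone, irradiated MC-38 (MC38 in the labels) tumors collected at 3 h (RT 3 h) and at 12 h (RT 12 h). MC-38 is a mouse colon cancer line. Its cells were injected under the skin of the right hind leg of young male wild-type C57BL/6 mice (C57BL/6J in the methods of the study), and the grown tumors received a single local dose of 15 Gy. All 4 mice of the MC-38 control group carried untreated tumors whose label gives the 3 h time point, and the RT 24 h group completes the model. The second model, RM-9, is a mouse prostate cancer line in the same host with the same dose. Bulk mRNA of a tumor piece was sequenced, so a value pools tumor, immune, stromal and adjoining cells, and fewer cells of a type cannot be told apart from less RNA per cell.

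Ionizing radiation breaks DNA, and cells in which the breaks are sensed hold at checkpoints before mitosis and before DNA replication. The p53 protein, stabilized by damage, switches on inhibitors such as p21, and transcripts of the mitotic kinases and cyclins fall while cells wait in G2. When the checkpoint is released, those transcripts accumulate again as cells enter mitosis. Irradiated tumors also release cytokines and chemokines, through NF-κB and the DNA-sensing pathways that feed type I interferon. The comparison asked which of these programs differed between 3 h and 12 h.

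The 8 libraries held 21.4 to 24.7 × 1000000 mapped reads, as estimated from coverage, and values are TPM (transcripts per 1000000). The mitochondrial transcript mt-Nd4l alone took 12.9 to 20.7% of all TPM at 3 h and 13.8 to 16.4% at 12 h (exact permutation test, two-sided, p = 0.343, adjusted over 3 library measures 0.343, n = 4 against 4). Because TPM of a library sum to 1000000, such a share lowers every other gene, so each comparison was made on TPM as deposited and again after median-ratio scaling, which sets the typical gene of each library to the same level. The scaling divides each library by a factor, 0.653 to 1.02 in the control mice, 0.920 to 1.12 at 3 h and 1.06 to 1.14 at 12 h. Levels of single mice are given as deposited, so their order against control mice can differ after scaling. The same holds for overlap between 3 h and 12 h mice, which is stated as deposited unless the scaling is named. The labels call the tissue an adenocarcinoma, but of 16 markers of epithelial identity 5 reached the filter on low values, and the summed level of the list was 3.19 to 5.64 TPM at 3 h and 4.21 to 7.15 TPM at 12 h. The defining epithelial marker Epcam (0 to 0.119 and 0 to 0.572 TPM at 3 h and 12 h) was at or near 0, and the intestinal factor gene Cdx2 was at 0 TPM in all 8 libraries.

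After the scaling, mitotic genes, among them Plk1, Cdc20 and Ccnb1, rose from 3 h to 12 h, together with the matrix gene Fn1. The cytokine gene Il1b, the early gene Fos and DNA replication genes such as Ung and Ccne2 fell. On TPM as deposited no gene passed limma's test at an adjusted p under 0.05 (0% of 15698 genes). The smallest adjusted p was 0.0926, and 1583 genes had an unadjusted p under 0.05. Under median-ratio scaling 104 genes passed (0.663%), of which 79 were higher at 12 h (0.503%) and 25 lower (0.159%). The scaling moved the median log2 fold change of all genes from 0.12 to -0.0045. Of the 104 genes, 88 had 3 h and 12 h mice that did not overlap in TPM as deposited, beside 10.1% of all genes that lay higher in every 12 h mouse and 1.53% that lay lower. The 104 were called on these same mice, so this count adds no support to the calls. The calls depended on single mice, and no gene passed under median-ratio scaling when limma was run without RT 12 h mouse 2, RT 12 h mouse 3, RT 12 h mouse 4, RT 3 h mouse 1 or RT 3 h mouse 2, with 1598 to 2114 genes at an unadjusted p under 0.05 and smallest adjusted p-values from 0.0599 to 0.0706. Without RT 12 h mouse 1, 33 genes were higher and 7 lower, and without RT 3 h mouse 3, 7 were higher and 1 (Tipin) lower.

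The library labelled RT 3 h mouse 4 stood apart from the other 3 h mice in its mitotic genes, so results are given with and without it. It was picked by the same mitotic genes that are compared here. Stronger mitotic results without it were therefore built in and add no support. The mitosis and G2/M genes summed to 2377, 2582, 2356 and 4119 TPM in the 3 h mice, to 3939.9, 4869, 4616 and 4251 TPM in the 12 h mice and to 2208, 3349, 3702 and 3069 TPM in the control mice. The sum of RT 3 h mouse 4 lay within the 12 h range. Cdkn1a, which encodes p21, stood at 108, 92.8, 120.4 and 86.4 TPM in the 3 h mice and at 52.8, 65.3, 62.4 and 52.4 TPM in the control mice, and Mdm2, the p53 inhibitor that p53 itself induces, at 27.8, 31.7, 38.2 and 38.3 and 12.2, 18.4, 18.4 and 13.6 TPM. As deposited, every 3 h mouse, mouse 4 included, was above every control mouse in both genes. After median-ratio scaling (factor 0.653 for control mouse 1 and 1.12 for RT 3 h mouse 4) this held for Mdm2. Cdkn1a was then higher in control mouse 1 than in RT 3 h mouse 4. Without this library, 89 genes were higher (0.567%) and 4 lower (0.0255%) on TPM as deposited, 0.592% of all genes together, the lower ones being Il1b, Fos, Ctss and the clone-named AC099934.2. Under median-ratio scaling 136 were then higher (0.866%) and 39 lower (0.248%), together 1.11%, and 90 of the 104 genes called with all mice were among them.

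Of 64 mitosis and G2/M genes, all tested, 33 rose under median-ratio scaling and none fell, beside 0.503% of all genes that rose. As deposited none passed the adjusted threshold, while 55 had an unadjusted p under 0.05 and were higher, beside 8.35% of all genes. The list's median log2 fold change was 0.71 as deposited and 0.58 under median-ratio scaling. In 24 members every 12 h mouse lay above every 3 h mouse as deposited, beside 10.1% of all genes. Without RT 3 h mouse 4, 47 rose under median-ratio scaling and 39 as deposited, but that mouse was set apart by these same genes. Each of the fits without RT 12 h mouse 2, 3 or 4, or without RT 3 h mouse 1, 2 or 3, called 0 list members, with a list median of 0.49 to 0.62. In these fits 51 to 56 members were higher at an unadjusted limma p under 0.05, beside 1598 to 2419 of all 15698 genes in either direction. The fit without RT 12 h mouse 1 called 15.

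Plk1 (ENSMUSG00000030867, chr7:122159437-122169875, coordinates as in the files, which match GRCm38) encodes the kinase that drives entry into mitosis and the recovery from the G2 checkpoint. It stood at 17.7, 30.8, 18.9 and 69.9 TPM in the 3 h mice, at 74.3, 96.5, 93.7 and 77.9 TPM in the 12 h mice and at 46.1, 67.2, 69.4 and 58.9 TPM in the control mice. As deposited, all 12 h mice were above all 3 h mice and all control mice, and 3 of the 3 h mice were below all control mice. After median-ratio scaling the 12 h mice overlapped the control mice. Plk1 rose by 1.40 ± 0.28 (± SE, log2 scale) under median-ratio scaling (limma, adjusted p = 0.0392), and the as-deposited value was 1.53 ± 0.30 (adjusted p = 0.0926).

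Cdc20 (ENSMUSG00000006398, chr4:118432901-118437352), which activates the anaphase-promoting complex, stood at 20.8, 27.6, 20.1 and 58.3 TPM in the 3 h mice, at 62.6, 85.9, 92.5 and 78.6 TPM in the 12 h mice and at 50.4, 76.9, 80.8 and 71.7 TPM in the control mice. The 3 h and 12 h mice did not overlap, and as deposited 3 of the 4 control mice lay within the 12 h range. Cdc20 rose by 1.32 ± 0.22 on the log2 scale under median-ratio scaling (adjusted p = 0.0235 by limma) and 1.45 ± 0.26 as deposited (adjusted p = 0.0926). Without RT 3 h mouse 4 the adjusted p under median-ratio scaling was 3.5e-05, within a range of 3.5e-05 to 0.0976 over all alternatives of that scaling. Ccnb1 (ENSMUSG00000041431, chr13:100778650-100786570) encodes cyclin B1, the partner of CDK1. It stood at 28.1, 36.8, 29.2 and 81.8 TPM at 3 h, at 89.7, 106, 112 and 93.6 TPM at 12 h and at 53.3, 81.2, 79.1 and 73 TPM in the control mice. Here RT 3 h mouse 4 lay far above the other 3 h mice, yet still below every 12 h mouse. It was above every control mouse as deposited and below every control mouse after median-ratio scaling. Ccnb1 rose by 1.19 ± 0.21 on the log2 scale under median-ratio scaling (limma, adjusted p = 0.0256).

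Cenpe, a kinetochore motor, stood at 10.6, 13.5, 10.01 and 26.4 TPM at 3 h and at 28.5, 35.6, 35.5 and 34.9 TPM at 12 h (log2 fold change 1.102 ± 0.19 under median-ratio scaling, limma adjusted p = 0.0257). Hmmr, a spindle-associated protein, stood at 13.3, 14.1, 11.7 and 26.1 TPM and 28.9, 38.2, 42.7 and 35.8 TPM (1.06 ± 0.17, adjusted p = 0.0235). In both genes the 3 h and 12 h mice did not overlap. Aurka, the kinase that matures centrosomes and activates Plk1, stood at 27.6, 38.4, 27.6 and 99.3 TPM at 3 h and at 96, 126, 120.0 and 105 TPM at 12 h (1.29 ± 0.26, adjusted p = 0.0392), and there RT 3 h mouse 4 overlapped the lowest 12 h mouse.

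**Figure D1:**
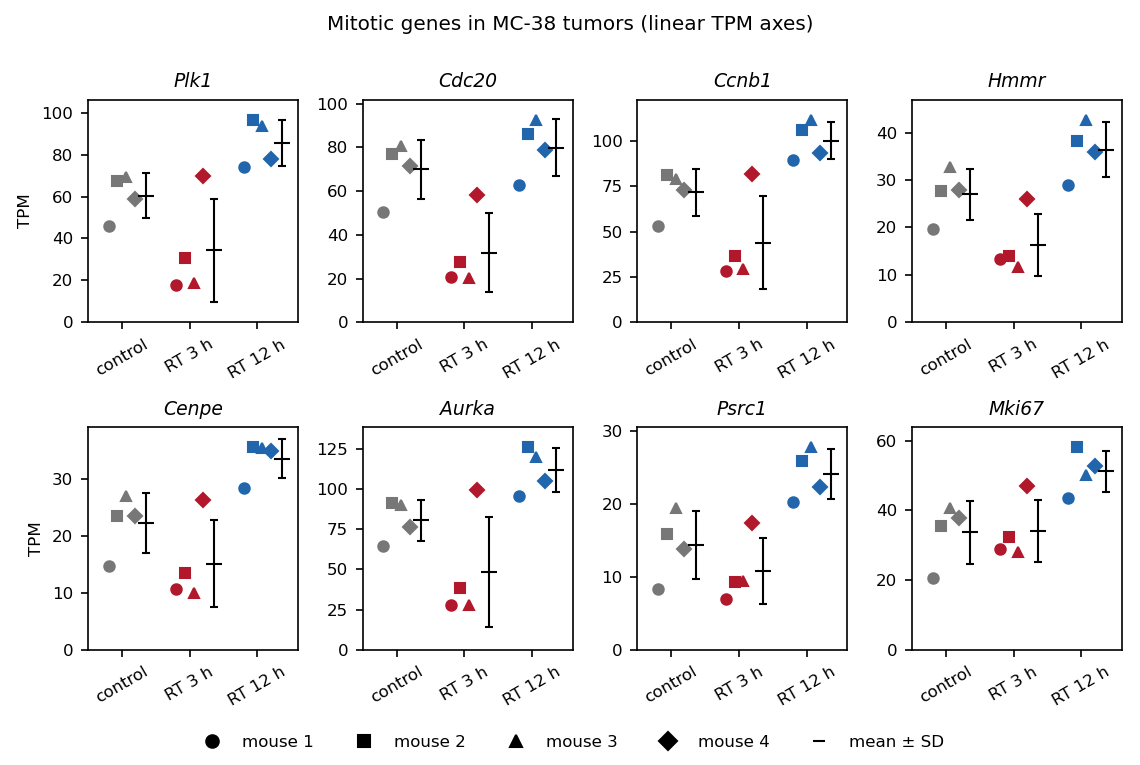
TPM (linear axes from 0) of 8 mitotic and proliferation genes in the 4 control, 4 RT 3 h and 4 RT 12 h MC-38 mice, each mouse a symbol, with the group mean ± SD beside it. In Plk1 the 12 h mice sit between 74.3 and 96.5 TPM, 3 of the 3 h mice between 17.7 and 30.8 TPM and RT 3 h mouse 4 at 69.9 TPM.

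The other members that rose span the mitotic cycle. Among the regulators of mitotic entry, Cdc25b and Cdc25c, the phosphatases that activate CDK1, rose by 0.77 and 0.82 on the log2 scale, and Bora, the cofactor of Aurka, rose by 0.93 (limma, median-ratio scaling, adjusted p = 0.0235, 0.0309 and 0.0235). Spindle genes among them were Tpx2 (0.87), Aspm (1.09), Kif23 (0.81), Prc1 (0.89) and Kif11 (0.65). Of the checkpoint and exit machinery, Bub1b rose by 0.82 and the ubiquitin-conjugating enzyme Ube2c by 0.97. Fzr1, the activator of the anaphase-promoting complex that acts after Cdc20, is no member of the list and rose by 0.54 (adjusted p = 0.0239). Of the genes that passed, 13 of 104 are annotated as pseudogenes, whose reads may come from near-identical parent genes, and their values are uncertain.

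The other 31 members did not pass. Cdk1, the mitotic kinase itself, stood at 123, 116, 107 and 281 TPM at 3 h and at 163, 308, 218 and 126 TPM at 12 h, with groups that overlapped and a log2 difference of 0.29 ± 0.28 (limma, median-ratio scaling, adjusted p = 0.66). Mki67, the Ki-67 antigen of cycling cells, stood at 28.9, 32.3, 28 and 47.1 and 43.7, 58.2, 50.1 and 52.8 TPM (0.47 ± 0.16, adjusted p = 0.183), overlapping only through RT 3 h mouse 4. Top2a, the topoisomerase that untangles sister DNA, stood at 176, 175, 153 and 246 and 242, 279, 252 and 237 TPM (0.31 ± 0.10, adjusted p = 0.169). The log2 fold changes of Pttg1 (-0.16), Mad2l1 (-0.037), Plk4 (-0.031) and Melk (-0.0056) were the 4 lowest of the list, with adjusted p-values from 0.438 to 0.983.

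Promoters of mitotic genes are known to hold a cell cycle homology region (CHR), bound by the DREAM and MMB complexes that repress and activate them, next to CCAAT boxes bound by NF-Y. The windows of Cdc20, Plk1 and Ccnb1 are shown because they hold these elements, from 250 bases before to 50 after the start site (RefSeq, GRCm38.p6), with the letters TTTGAA or TTTAAA and their reverse complements (CHR), and CCAAT and its reverse complement, in capitals. Cdc20 is at chr4:118437294-118437593 on the minus strand, Plk1 at chr7:122159185-122159484 on the plus strand and Ccnb1 at chr13:100786437-100786736 on the minus strand.
Cdc20: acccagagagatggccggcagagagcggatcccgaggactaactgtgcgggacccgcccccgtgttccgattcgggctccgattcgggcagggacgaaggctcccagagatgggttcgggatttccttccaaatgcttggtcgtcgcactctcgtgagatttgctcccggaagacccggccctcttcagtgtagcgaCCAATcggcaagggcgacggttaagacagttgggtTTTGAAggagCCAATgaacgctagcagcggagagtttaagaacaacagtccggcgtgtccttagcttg
Plk1: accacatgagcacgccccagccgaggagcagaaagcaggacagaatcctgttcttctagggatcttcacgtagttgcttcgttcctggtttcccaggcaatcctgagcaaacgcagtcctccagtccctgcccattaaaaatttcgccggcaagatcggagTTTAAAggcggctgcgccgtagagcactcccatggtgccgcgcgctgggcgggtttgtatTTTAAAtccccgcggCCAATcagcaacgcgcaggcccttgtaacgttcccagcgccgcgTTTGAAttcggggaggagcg
Ccnb1: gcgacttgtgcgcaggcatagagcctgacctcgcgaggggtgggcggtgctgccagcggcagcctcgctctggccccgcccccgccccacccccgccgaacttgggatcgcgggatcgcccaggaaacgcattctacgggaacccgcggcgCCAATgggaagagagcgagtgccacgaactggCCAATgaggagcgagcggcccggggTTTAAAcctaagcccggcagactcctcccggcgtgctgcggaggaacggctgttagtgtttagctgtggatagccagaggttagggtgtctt

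Counted from the start site, the TTTGAA of Cdc20 began at base -18 and its CCAAT letters at -53 and -8. Plk1 held TTTAAA at -89 and -29, TTTGAA at 31 and CCAAT at -14. Ccnb1 held TTTAAA at -42 and CCAAT at -99 and -67. RefSeq promoters were matched for 52 of the 64 mitosis and G2/M genes, and 35 of them (67.3%) held both sets of letters, as did 12.2% of all 27025 genes with a promoter. The share was 75.9% (22 of 29) among the members that rose under median-ratio scaling and 56.5% (13 of 23) among the rest. Of the 42 matched DNA replication and G1/S genes, 23.8% held both, whereas 61.9% held an E2F form (TTNNCGC on either strand, with GG, CC, CG or GC at NN), against 17.3% of the mitotic genes and 10.9% of all genes. Of the 8 replication genes that fell, 4 had a promoter in the table and 1 of them (25%) held an E2F form, as did 25 of 38 (65.8%) of the rest. The interferon-stimulated genes held the interferon response core (GAAA, any 2 bases, GAAA) in 55.3% of 38 matched promoters, against 3.99% of all genes. A match of letters is a description of the window and does not show that a factor bound there.

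DNA replication and G1/S genes went the other way in part. Of 54 members, all tested, 8 fell under median-ratio scaling (Ung, Ccne2, Orc6, Gins1, Chaf1b, Tipin, E2f1 and Gmnn), beside 0.159% of all genes, and none rose. As deposited none passed. At an unadjusted limma p under 0.05, 4 were lower, beside 1.73% of all genes, and 1 was higher, beside 8.35%. In all 8 genes that fell the 12 h mice lay below every 3 h mouse as deposited, beside 1.53% of all genes, but the 8 were called on these same mice. The list median was -0.024 as deposited and -0.16 under median-ratio scaling. Without RT 3 h mouse 4, 9 fell under median-ratio scaling, now with Mcm5 and Pcna and without Gmnn. The fits without RT 12 h mouse 2, 3 or 4 or without RT 3 h mouse 1 or 2 called 0, that without RT 3 h mouse 3 called 1 (Tipin) and that without RT 12 h mouse 1 called 4.

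Ung (ENSMUSG00000029591, chr5:114130386-114139323), the uracil-DNA glycosylase made for S phase, stood at 20.1, 14.8, 18.4 and 14.2 TPM in the 3 h mice, at 8.58, 9.36, 10.9 and 9.12 TPM in the 12 h mice and at 10.8, 18.8, 21.3 and 17.1 TPM in the control mice. Every 12 h mouse was below every 3 h mouse, and as deposited 3 of the 4 control mice lay in or above the 3 h range. Ung fell, with -0.91 ± 0.13 on the log2 scale under median-ratio scaling (limma, adjusted p = 0.0235), and -0.79 ± 0.19 as deposited (adjusted p = 0.15). Ccne2 (ENSMUSG00000028212, chr4:11191351-11204779), the cyclin E2 gene that opens S phase, stood at 40.3, 34.3, 38.6 and 34.4 TPM at 3 h, at 28.7, 26.2, 24.2 and 23.7 TPM at 12 h and at 18.1, 29.1, 29.9 and 21.7 TPM in the control mice. As deposited, the 12 h mice were below all 3 h mice and within the control range. After median-ratio scaling most of the 12 h mice lay below every control mouse. The change of Ccne2 under that scaling was -0.64 ± 0.11 on the log2 scale (limma, adjusted p = 0.0235). Its paralog Ccne1 stood at 21.5, 27.1, 24 and 39.4 TPM at 3 h and at 23.8, 23.9, 22.3 and 20.02 TPM at 12 h, with overlap, and did not pass (-0.40 ± 0.19, adjusted p = 0.319).

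Orc6, a subunit of the origin recognition complex, went from 108 ± 5.69 to 84.5 ± 3.16 TPM (mean ± SD, n = 4 each, log2 fold change -0.48 ± 0.094, limma adjusted p = 0.0331 under median-ratio scaling). E2f1, the activator of the G1/S genes, went from 41.4 ± 1.9 to 36.2 ± 1.08 TPM (-0.32 ± 0.063, adjusted p = 0.034), and Gmnn, the inhibitor of origin relicensing, from 84.4 ± 9.27 to 74.4 ± 0.759 TPM (-0.31 ± 0.063, adjusted p = 0.0392). As deposited the values were -0.19 for E2f1 and -0.18 for Gmnn, and the 12 h mice lay below all 3 h mice in each of the 3 genes. Of the replicative helicase genes, Mcm2 stood at 96.3, 103, 102 and 117 TPM at 3 h and at 107, 109.8, 109 and 103 TPM at 12 h (-0.090 ± 0.084, adjusted p = 0.648), and Mcm5 at 135, 126, 133 and 134 and 122, 125, 125 and 116 TPM (-0.24 ± 0.060, adjusted p = 0.081). The groups overlapped in Mcm2, while every 12 h mouse was below every 3 h mouse in Mcm5.

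**Figure D2:**
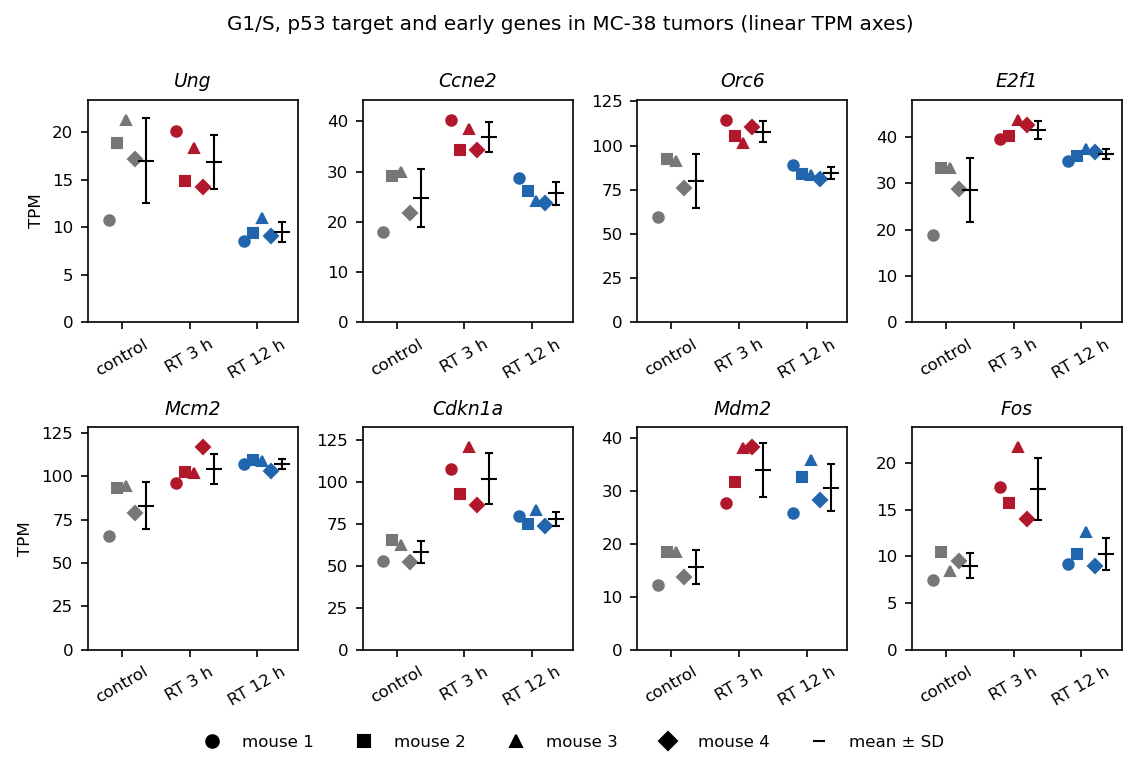
TPM (linear axes from 0) of G1/S genes, p53 targets and Fos in the 4 control, 4 RT 3 h and 4 RT 12 h MC-38 mice, each mouse a symbol, with the group mean ± SD beside it. In Ung, Ccne2, Orc6, E2f1, Cdkn1a and Fos every 12 h mouse lies below every 3 h mouse, whereas the groups overlap in Mcm2 and Mdm2.

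Of 23 tested among 24 G1 cyclins and CDK inhibitors none passed under either scaling, with a median of 0.16 as deposited and 0.032 under median-ratio scaling. Cdkn1a stood at 108, 92.8, 120.4 and 86.4 TPM at 3 h, at 79.3, 75, 82.8 and 73.8 TPM at 12 h and at 52.8, 65.3, 62.4 and 52.4 TPM in the control mice. As deposited the 12 h mice lay above all control mice, which they overlapped after median-ratio scaling. The 12 h mice lay below all 3 h mice. On the log2 scale the difference was -0.51 ± 0.15 with median-ratio scaling (adjusted p = 0.122 by limma) and -0.38 ± 0.12 as deposited (adjusted p = 0.306). Without RT 3 h mouse 4 Cdkn1a passed (adjusted p = 0.0411, range over the alternatives of that scaling 0.0411 to 0.35), as did E2f5, which was higher. Ccnd1, the cyclin D1 gene, stood at 203, 231, 186 and 282 and 263, 266, 262 and 212 TPM (0.032 ± 0.14, adjusted p = 0.94). E2f3 stood at 9.35, 9.02, 9.7 and 12.3 TPM at 3 h and at 14.5, 15.5, 14.6 and 12.8 TPM at 12 h (0.37 ± 0.10, adjusted p = 0.09999). The groups overlapped in Ccnd1 and not in E2f3.

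Of 37 tested among 39 p53 targets 1 rose under median-ratio scaling, Psrc1, and none fell, with a list median of 0.023 as deposited and -0.11 under median-ratio scaling. Psrc1 encodes a spindle protein, and it stood at 7.01, 9.31, 9.45 and 17.4 TPM at 3 h, at 20.3, 25.9, 27.8 and 22.4 TPM at 12 h and at 8.31, 15.9, 19.5 and 13.9 TPM in the control mice, without overlap between 3 h and 12 h (1.06 ± 0.18, limma adjusted p = 0.0236). Mdm2 stood at 27.8, 31.7, 38.2 and 38.3 TPM at 3 h and at 25.9, 32.6, 35.8 and 28.2 TPM at 12 h, with overlap, and all 8 mice were above the control mice (-0.28 ± 0.10, adjusted p = 0.193). Without RT 3 h mouse 4, Psrc1 and Gtse1 rose and Cdkn1a, Btg2 and Trp53inp1 fell under median-ratio scaling. Of 49 DNA damage response and repair genes none passed (median 0.15 as deposited and 0.024 under median-ratio scaling). The smallest p-values as deposited belonged to Wee1, the kinase that restrains CDK1 (12.1 ± 3.55 and 18.3 ± 3.07 TPM at 3 h and 12 h, n = 4 each, limma adjusted p = 0.211 under median-ratio scaling), and H2afx, the histone H2A.X gene (16.6 ± 2.76 and 22.8 ± 3.31 TPM, adjusted p = 0.241).

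Fos, an immediate early transcription factor gene, was the 1 of 32 immediate early genes that fell under median-ratio scaling. It stood at 17.5, 15.7, 21.7 and 14 TPM at 3 h, at 9.12, 10.3, 12.7 and 8.98 TPM at 12 h and at 7.4, 10.5, 8.42 and 9.53 TPM in the control mice, and no 12 h mouse reached the 3 h range (-0.84 ± 0.15, limma adjusted p = 0.0254, and as deposited -0.71 ± 0.15, adjusted p = 0.0926). Rgs2, a regulator of G-protein signaling, stood at 7.59, 7.78, 7.15 and 9.34 TPM at 3 h and at 4.73, 4.27, 5.67 and 2.91 TPM at 12 h and also fell (-0.93 ± 0.18, adjusted p = 0.0312), below its control range of 7.18 to 9.18 TPM. The list medians were -0.011 as deposited and -0.12 under median-ratio scaling for immediate early genes and 0.0020 as deposited and -0.12 under median-ratio scaling for TNF and NF-κB feedback genes, of which none passed (23 tested among 25). In that list Icam1, an adhesion molecule, had the smallest p as deposited (17.3 ± 2.61 and 13 ± 2.16 TPM, n = 4 each, limma adjusted p = 0.298 under median-ratio scaling).

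Fn1 (ENSMUSG00000026193, chr1:71585520-71653200), the gene of the matrix protein fibronectin, stood at 131, 144, 209 and 204 TPM at 3 h, at 293, 499, 435 and 513 TPM at 12 h and at 86.1, 167, 172 and 97.4 TPM in the control mice. Every 12 h mouse was above every 3 h and every control mouse. Fn1 rose by 1.20 ± 0.26 on the log2 scale under median-ratio scaling (limma, adjusted p = 0.0475) and had 1.34 ± 0.28 as deposited (adjusted p = 0.0926). It was the 1 of 23 fibroblast and collagen genes to pass, and the list median was 0.15 as deposited and 0.025 under median-ratio scaling. Without RT 3 h mouse 4 its adjusted p was 0.0557 (range over the alternatives 0.0334 to 0.177). Outside the lists, the matrix genes Nid2, a basement membrane nidogen (0.87, adjusted p = 0.0369), Col18a1, collagen XVIII (0.53, 0.0434), and Aebp1, a collagen-binding protein (0.71, 0.03998), rose too. They were picked out after their values were seen.

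Of 26 hypoxia and glycolysis genes 1 rose under median-ratio scaling, Hk2, which encodes hexokinase 2, the entry enzyme of glycolysis. It stood at 16.2, 20.6, 25.1 and 25.3 TPM at 3 h, at 32.1, 42.5, 35.3 and 44.1 TPM at 12 h and at 14.3, 22.8, 23 and 18.1 TPM in the control mice, and the 12 h mice were above all others (0.69 ± 0.13, limma adjusted p = 0.0309). The list as a whole had a median of 0.52 as deposited and 0.39 under median-ratio scaling, and 17 members were higher at an unadjusted p under 0.05 as deposited, beside 8.35% of all genes, and 15 under median-ratio scaling, beside 7.45%. The glucose transporter Slc2a1 stood at 41.9, 32.6, 60.9 and 36.9 TPM at 3 h and at 68, 86, 72.6 and 106 TPM at 12 h without overlap, but did not pass (adjusted p = 0.109 under median-ratio scaling).

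None of 18 tested among 19 clock genes passed, with a median of 0.48 as deposited and 0.36 under median-ratio scaling. At an unadjusted limma p under 0.05, 11 members were higher as deposited, beside 8.35% of all genes, and 9 under median-ratio scaling, beside 7.45%. Bhlhe40, a clock repressor that hypoxia also induces, stood at 32.9, 41, 57.8 and 46.8 TPM at 3 h and at 67.1, 95.3, 81.4 and 109.5 TPM at 12 h without overlap (0.85 ± 0.19, adjusted p = 0.0584). Per1 stood at 9.22, 7.48, 13 and 8.57 and 11.2, 13.5, 15.7 and 22 TPM (adjusted p = 0.257), and the clock output gene Dbp at 2.47, 1.74, 4.11 and 2.18 and 3.61, 3.25, 3.23 and 4.91 TPM (adjusted p = 0.476), both with overlap. Of glucocorticoid targets none passed (12 tested among 15, median 0.31 as deposited and 0.19 under median-ratio scaling), and Lcn2, with the smallest p as deposited, was at 5.09, 4.42, 19.8 and 4.47 TPM at 3 h and at 12.2, 16.2, 10.5 and 20.3 TPM at 12 h. Stress lists gave 0 calls as well. The integrated stress and unfolded protein response list (25 tested among 26) had a median of 0.26 as deposited and 0.13 under median-ratio scaling, with Pdia4 at 142 ± 15.2 and 194 ± 4.69 TPM (limma adjusted p = 0.0805 under median-ratio scaling). The 16 heat shock chaperones had a median of 0.22 as deposited and 0.090 under median-ratio scaling, with the cochaperone Bag3 at 23.6 ± 2.58 and 33.4 ± 1.23 TPM (adjusted p = 0.153). The hour of day at collection is not given in the sources used here, and its part in these values was not tested.

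Among immune genes, Il1b (ENSMUSG00000027398, chr2:129364570-129371139), which encodes the cytokine IL-1β, had the lowest log2 fold change of the 25 genes that fell. It stood at 39, 31.7, 31.9 and 26.6 TPM in the 3 h mice, at 14.8, 13.7, 18.8 and 16.5 TPM in the 12 h mice and at 22.5, 27.8, 15.9 and 25.4 TPM in the control mice. Every 12 h mouse was below every 3 h mouse, and as deposited 2 of the 4 were below all control mice. Il1b fell under median-ratio scaling with -1.12 ± 0.21 on the log2 scale (limma, adjusted p = 0.0309), and had -0.996 ± 0.18 as deposited (adjusted p = 0.0926). It was the 1 gene to pass among 18 tested among 20 members of the IL-1 and IL-6 family (median 0.011 as deposited and -0.11 under median-ratio scaling) and among 13 genes of type I interferons and DNA sensing (median 0.053 as deposited and -0.077 under median-ratio scaling). Il1rn, the receptor antagonist, stood at 29.9, 16.8, 35.4 and 16.7 TPM at 3 h and at 16.3, 11, 19.9 and 19.6 TPM at 12 h, with overlap (adjusted p = 0.236).

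Ifnb1, the interferon β gene, was low throughout, at 1.56, 1.16, 1.27 and 1.88 TPM at 3 h and 1.83, 1.46, 1.41 and 1.83 TPM at 12 h, against 0.663, 0.616, 1.01 and 0.443 TPM in the control mice, and its groups overlapped between 3 h and 12 h (adjusted p = 0.975 by limma under median-ratio scaling). Casp1, the protease that matures IL-1β, stood at 56.1, 40.8, 53.6 and 53.9 and 71.5, 61.4, 58.2 and 80.9 TPM. Its groups did not overlap as deposited but overlapped after median-ratio scaling (limma adjusted p = 0.276 under that scaling). None of 50 interferon-stimulated genes passed (median 0.037 as deposited and -0.095 under median-ratio scaling). Isg15, a ubiquitin-like modifier, stood at 635, 545, 612 and 715 TPM at 3 h and at 627, 560.4, 570.1 and 629 TPM at 12 h (log2 fold change -0.20 ± 0.14), and Ifit1, an RNA-binding effector, at 97.4, 84, 86.9 and 116 and 94.5, 85.3, 96.9 and 91 TPM (-0.19 ± 0.16). Both overlapped (adjusted p = 0.505 and 0.62). Ifi27l2a and Irf7 had the smallest p-values of the list as deposited, at 153 ± 18.1 and 215 ± 31.5 TPM at 3 h and 116 ± 28.4 and 176 ± 18.3 TPM at 12 h (n = 4 each, limma adjusted p = 0.324 and 0.231 under median-ratio scaling).

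Cxcl10, a chemokine that draws T cells and that interferon induces, stood at 1591, 1395, 1441 and 1709 TPM in the 3 h mice, at 1115, 1013, 1105 and 1065 TPM in the 12 h mice and at 617, 928, 1043 and 776 TPM in the control mice. The 12 h mice were below all 3 h mice, but the change did not pass (-0.64 ± 0.19 under median-ratio scaling, limma adjusted p = 0.13, range over the alternatives 0.0386 to 0.346). Of 20 tested among 23 chemokines other than CXCR2 ligands none passed (median -0.24 as deposited and -0.37 under median-ratio scaling). Ccl2, the monocyte chemoattractant, stood at 693, 401, 654 and 468 and 649, 458, 568 and 794 TPM with wide overlap (adjusted p = 0.96). Cx3cl1, fractalkine, stood at 18.7, 9.25, 13.3 and 10.04 TPM at 3 h and at 24.1, 19.9, 20.9 and 25.7 TPM at 12 h. Its groups did not overlap as deposited but overlapped after median-ratio scaling (limma adjusted p = 0.106 under that scaling). Cxcl16 stood at 37.2, 28.5, 31.9 and 23.3 and 20.6, 13.2, 29.3 and 11.5 TPM with overlap (adjusted p = 0.156). The CXCR2 ligands, which draw neutrophils, gave 0 of 5 (median 0.13 as deposited and 0.032 under median-ratio scaling). Of these Cxcl1 stood at 17.5, 13.2, 25.6 and 19.1 TPM at 3 h and at 28.5, 30.1, 24.1 and 37.4 TPM at 12 h (adjusted p = 0.242), and Cxcl3 at 1.94, 3.23, 4.49 and 3.91 and 2.78, 3.02, 0.887 and 1.89 TPM (adjusted p = 0.231), both overlapping.

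**Figure D3:**
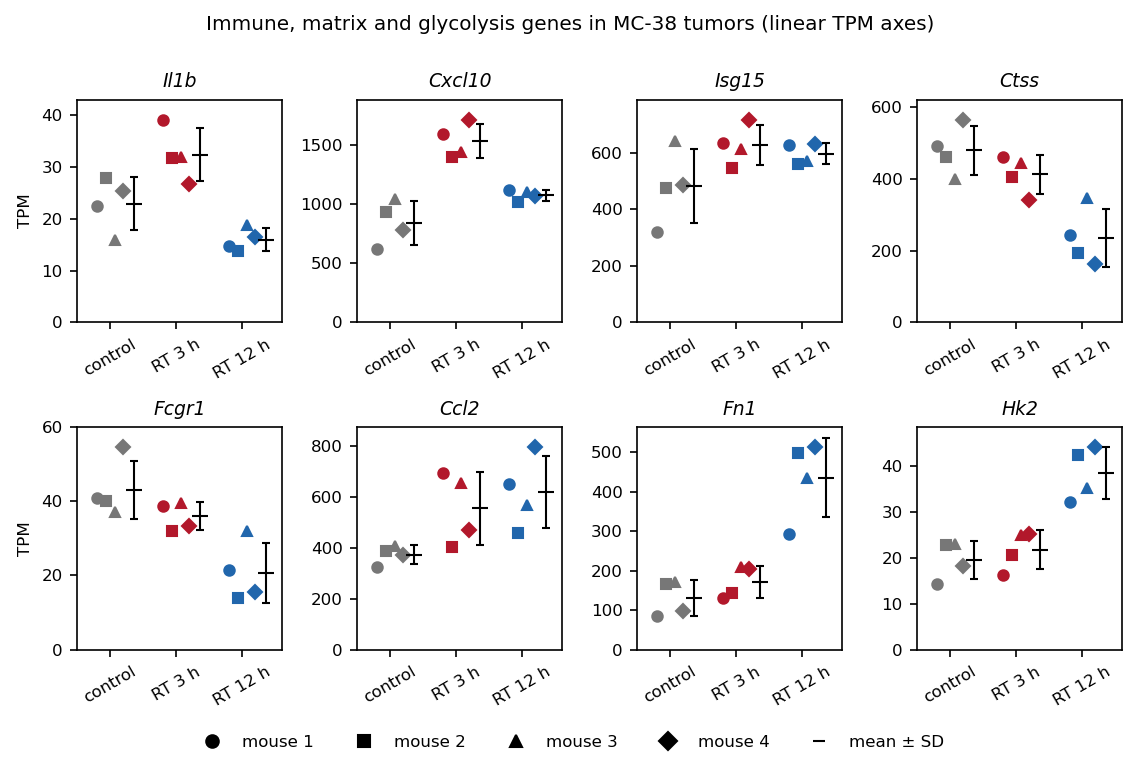
TPM (linear axes from 0) of immune, matrix and glycolysis genes in the 4 control, 4 RT 3 h and 4 RT 12 h MC-38 mice, each mouse a symbol, with the group mean ± SD beside it. Every 12 h mouse lies below every 3 h mouse in Il1b, Cxcl10 and Fcgr1 and above every 3 h mouse in Fn1 and Hk2, while the groups overlap in Isg15, Ctss and Ccl2.

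Macrophage genes had lower values at 12 h, although none of 25 passed. Their summed level was 3554, 2962, 3889 and 3080.4 TPM in the 3 h mice, 2657, 2707, 3161 and 2487 TPM in the 12 h mice and 3746, 3645, 3743 and 4385 TPM in the control mice, so that RT 12 h mouse 3 alone overlapped the 3 h range. The list median was -0.67 as deposited and -0.80 under median-ratio scaling, and 14 members were lower at an unadjusted limma p under 0.05 as deposited, beside 1.73% of all genes. Fcgr1, an Fc receptor, stood at 38.9, 32.1, 39.5 and 33.4 TPM at 3 h and at 21.4, 13.9, 32 and 15.7 TPM at 12 h without overlap (-0.98 ± 0.26, adjusted p = 0.0995 under median-ratio scaling). Adgre1, the F4/80 antigen, stood at 22.8, 20.5, 24 and 15.6 and 13.5, 10.1, 18.4 and 7.08 TPM (-0.92 ± 0.26, adjusted p = 0.119), and RT 12 h mouse 3 overlapped again. Ms4a14, a tetraspan gene of the Ms4a cluster, fell from 5.29, 3.63, 4.996 and 4.14 to 2.43, 1.96, 3.24 and 1.38 TPM (-1.003 ± 0.19, adjusted p = 0.0291). Ctss, the protease that trims the invariant chain of MHC class II, stood at 461, 403, 444 and 339.7 and 243, 192, 347 and 163 TPM, overlapping through RT 12 h mouse 3 and RT 3 h mouse 4 (adjusted p = 0.0757, 0.0414 without RT 3 h mouse 4, range over the alternatives 0.0414 to 0.268). Il1b and Ctss are made by macrophages and other myeloid cells, and the part of the macrophage gene level in their values was not tested.

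The other immune lists gave 0 calls under either scaling with all mice. Among 19 MHC class I presentation genes (median 0.086 as deposited and -0.046 under median-ratio scaling) the smallest p-values as deposited belonged to H2-T23 (56.1 ± 7.34 and 43.3 ± 8.37 TPM at 3 h and 12 h, n = 4 each, limma adjusted p = 0.197 under median-ratio scaling) and the chaperone Calr (806 ± 72.9 and 957 ± 30.9 TPM, 0.537). Of 10 tested among 11 MHC class II genes (median -0.022 as deposited and -0.14 under median-ratio scaling), H2-Oa stood at 8.59, 4.56, 10.7 and 5.26 and 11.1, 9.41, 10.2 and 16.1 TPM with overlap. Of 17 tested among 20 immune checkpoint genes (median -0.022 as deposited and -0.14 under median-ratio scaling), Cd274, the PD-L1 gene, stood at 33.7, 19.1, 34.6 and 23.1 TPM at 3 h and at 23.8, 20.1, 27.4 and 28.6 TPM at 12 h with overlap (adjusted p = 0.516), Cd86 at 4.78 ± 0.544 and 2.83 ± 1.03 TPM (adjusted p = 0.0927) and Cd276 at 10.9 ± 1.42 and 13.5 ± 1.1 TPM (adjusted p = 0.462).

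T-cell genes (26 tested among 27, median -0.13 as deposited and -0.21 under median-ratio scaling) summed to 130.0, 96.1, 116 and 97.4 TPM at 3 h and 94.3, 91, 135 and 90.4 TPM at 12 h. Cd8a, the co-receptor of cytotoxic T cells, was low at 2.69, 1.96, 2.39 and 1.61 and 1.61, 1.53, 3.53 and 1.57 TPM (limma adjusted p = 0.72 under median-ratio scaling), and Trac stood at 8.77, 6.8, 7.58 and 4.74 and 4.38, 4.51, 6.15 and 3.68 TPM (adjusted p = 0.236). RT 12 h mouse 3 held the highest Cd8a and the highest T-cell sum of the 12 h mice, as it held their highest macrophage sum. NK and cytotoxic genes (19 tested among 20) had a median of 0.011 as deposited and -0.11 under median-ratio scaling, with the receptor Klrk1 at 9.04 ± 2.11 and 5.36 ± 2.93 TPM. B-cell genes (6 tested among 13) had a median of -0.078 as deposited and -0.19 under median-ratio scaling, with Ighm at 7.03 ± 3.38 and 4.16 ± 1.29 TPM. Dendritic-cell genes (8 tested among 14) had a median of -0.032 as deposited and -0.15 under median-ratio scaling, with Ccr7 at 2.56 ± 0.19 and 3.34 ± 0.419 TPM. Neutrophil genes (13 tested among 21) had a median of -0.093 as deposited and -0.15 under median-ratio scaling, and S100a8, their abundant calcium-binding protein, stood at 3.96, 3.53, 8.11 and 2.79 and 5.6, 4.25, 4.39 and 7.07 TPM, with Retnlg at 0.695, 0.961, 0.88 and 1.03 and 0, 0.655, 0 and 0.288 TPM. The groups overlapped in S100a8 and not in Retnlg. In these lists the adjusted p-values of the genes named ran from 0.187 to 0.884.

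Genes of neighboring tissue varied between mice. The 22 skeletal muscle genes summed to 1773, 4402, 152 and 745 TPM at 3 h and to 74.7, 712, 47.3 and 41.2 TPM at 12 h, and RT 12 h mouse 2 overlapped the 3 h range (median -2.70 as deposited and -2.80 under median-ratio scaling, 0 passed). The muscle oxygen carrier Mb stood at 14.6, 7.26, 4.4 and 4.55 and 0.701, 2.64, 0.799 and 0.317 TPM, every 12 h mouse below every 3 h mouse (limma adjusted p = 0.263 under median-ratio scaling). In the control mice the muscle sum was 17006, 64.1, 242 and 2802 TPM, and without control mouse 1 the calls under median-ratio scaling were 78 higher and 29 lower. Skin keratinocyte genes summed to 2.79, 2.35, 3.88 and 2.65 TPM at 3 h and to 3.97, 2.76, 3.93 and 97.5 TPM at 12 h, RT 12 h mouse 4 standing above all others (median of the 6 tested among 13, 1.09 as deposited and 1.03 under median-ratio scaling), and Flg reached 3.61 TPM in that mouse against 0.531, 0.181 and 1.29 TPM in the other 12 h mice. With RT 3 h mouse 4 and RT 12 h mouse 4 both left out, 43 mitotic genes rose and 5 replication genes fell under median-ratio scaling. Endothelial genes (17 tested among 18, median 0.078 as deposited and -0.047 under median-ratio scaling, Cldn5 2.01 ± 0.922 and 2.99 ± 0.237 TPM), adipocyte genes (4 tested among 8, median 0.39 as deposited and 0.29 under median-ratio scaling, Adipoq 0.219 ± 0.131 and 0.782 ± 0.534 TPM), erythroid and platelet genes (7 tested among 12, median -0.27 as deposited and -0.40 under median-ratio scaling, Hbb-bt 11.2 ± 1.67 and 6.45 ± 1.44 TPM) and epithelial genes (median 0.13 as deposited and 0.058 under median-ratio scaling, Vil1 0.397 ± 0.115 and 1.03 ± 0.351 TPM) gave 0 calls.

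Growth and energy lists gave 0 calls as well. The 35 ribosomal protein genes had a median of -0.025 as deposited and -0.16 under median-ratio scaling, with Rps14 at 1539.9 ± 109 and 1267 ± 87.3 TPM (mean ± SD at 3 h and 12 h, n = 4 each, limma adjusted p = 0.0862 under median-ratio scaling). The 31 nuclear OXPHOS subunits had a median of 0.016 as deposited and -0.12 under median-ratio scaling, with Sdha at 102 ± 4.51 and 114 ± 5.25 TPM (adjusted p = 0.866). The 9 tested among 13 mitochondrially encoded genes had a median of -0.10 as deposited and -0.23 under median-ratio scaling, with mt-Nd3 at 423 ± 88.1 and 322 ± 32.2 TPM (adjusted p = 0.394). Of 35 tested among 69 replication-dependent histone genes, whose transcripts lack the poly(A) tail that mRNA libraries select, Hist3h2a (2.32 ± 0.638 and 3.52 ± 0.403 TPM) and Hist1h4f (0.727 ± 0.273 and 1.23 ± 0.153 TPM) had the smallest p-values as deposited (adjusted p = 0.1997 and 0.231), and the list median was 0.13 as deposited and 0.028 under median-ratio scaling.

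**Figure D4:**
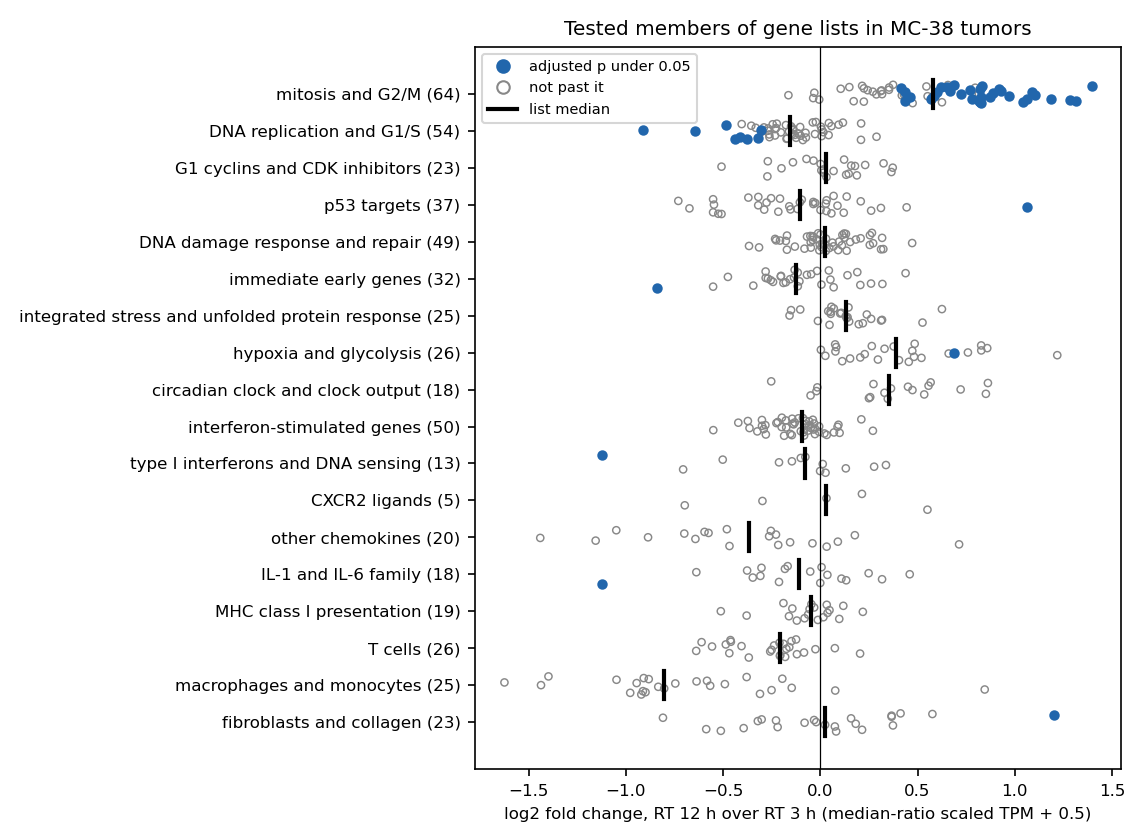
Log2 fold change from RT 3 h to RT 12 h (median-ratio scaled TPM + 0.5, linear axis of log2 values) of every tested member of 18 gene lists, with the number tested in brackets, filled points past limma's adjusted p under 0.05 and a bar at the list median. The 33 filled points of mitosis and G2/M lie on the right and the 8 of DNA replication and G1/S on the left, and no other list drawn has more than 1 filled point.

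The change from 3 h to 12 h was compared with that of RM-9 tumors, which share no mouse with MC-38, by an interaction contrast over all 31 libraries. As deposited 2785 of 15358 genes differed (18.1%), of which 2768 had the higher change in MC-38 (18.0%) and 17 the lower (0.111%). The median gene moved by 0.36 in that contrast, and by -0.24 from 3 h to 12 h within RM-9. All mitochondrial genes together took 48.1 to 51.6% of TPM in the RM-9 RT 3 h mice. In the RM-9 RT 12 h mice they took 52.4 to 57.2%, without overlap. In MC-38 their mean share was 27.2% at 3 h and 24.6% at 12 h, with overlap. As deposited, such a share enters the change of every other gene, and its part in the 2785 calls was not tested. Single libraries moved the count of calls too. It was 29 without RM-9 RT 12 h mouse 1 and 1403 without mouse 4, and 1048 and 561 without RM-9 RT 3 h mouse 1 or 4. It was 643, 315 and 4294 without MC-38 RT 3 h mouse 1, 2 or 4, and 1075, 1763 and 1161 without MC-38 RT 12 h mouse 2, 3 or 4. Under median-ratio scaling, where the median moved by 0.016, 392 genes differed (2.55%), 165 with the higher (1.07%) and 227 with the lower change in MC-38 (1.48%), and 177 genes were called under both scalings. Further values of this contrast are on the median-ratio scale unless they are marked as deposited.

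Whether mitotic genes changed more in MC-38 than in RM-9 depended on the scaling and on single mice. As deposited, 20 of the 64 had the higher change in MC-38 with all mice, beside 18.0% of all genes. The count over all genes moved with single mice too. Without MC-38 RT 12 h mouse 2, 3 or 4 the mitotic count was 2, 5 and 2, beside 1064, 1741 and 1157 of all 15358 genes. Without MC-38 RT 3 h mouse 1, 2, 3 or 4 it was 1, 1, 4 and 44, beside 642, 315, 2363 and 4267 of all genes. It was 0 and 3 without RM-9 RT 12 h mouse 1 or 4, beside 29 and 1398 of all genes. Without RM-9 RT 3 h mouse 1, 2 or 4 it was 4, 11 and 1, beside 1047, 2109 and 560 of all genes. In RM-9 tumors their median log2 fold change was 0.42, with 28 members higher at 12 h beside 1.12% of all genes, and under median-ratio scaling the interaction called 0 higher in MC-38 and 1, Mad2l1, lower (-0.34, adjusted p = 0.0393). Cdc20 changed by 1.32 ± 0.22 in MC-38 and by 0.72 ± 0.19 in RM-9, and the difference of 0.60 ± 0.26 did not pass (limma interaction, adjusted p = 0.192). Without MC-38 RT 3 h mouse 4, 16 mitotic genes had the larger change in MC-38 under median-ratio scaling, beside 1.35% of all genes. That mouse was set apart by the same genes, so this count adds no support. Of the 54 DNA replication and G1/S genes, with a median of -0.17 in RM-9, 1 differed, beside 2.55% of all genes. It was the methyltransferase gene Dnmt1 (0.057 in MC-38 and -0.49 in RM-9, limma interaction, adjusted p = 0.0419).

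Of the 104 genes called in MC-38, 23 also differed from RM-9, beside 2.55% of all genes, and none of the 23 belonged to the mitosis and G2/M list. The 104 were called on MC-38 mice that also enter this contrast, so a raised share was built in. Psrc1 rose by 1.06 in MC-38 and had 0.020 in RM-9 (difference 1.04 ± 0.21, limma interaction, adjusted p = 0.0205). Nid2 had 0.87 and -0.51 (adjusted p = 0.00663), Aebp1 0.71 and -0.11 (0.0238), and the phospholipase gene Plcg2 0.35 and -0.41 (0.00663), in MC-38 and RM-9 in that order. Ms4a14 had -1.003 and 0.046 (0.0265). Il1b had -1.12 in MC-38 and 0.12 in RM-9, Fos -0.84 and 0.012, and Fn1 1.20 and -0.0087, but these differences did not pass (adjusted p = 0.101, 0.134 and 0.0576). Of the immune lists, 1 gene differed, beside 2.55% of all genes, the chemokine gene Ccl9 (-1.16 in MC-38 and 0.72 in RM-9, limma interaction, adjusted p = 0.0482).

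**Figure D5:**
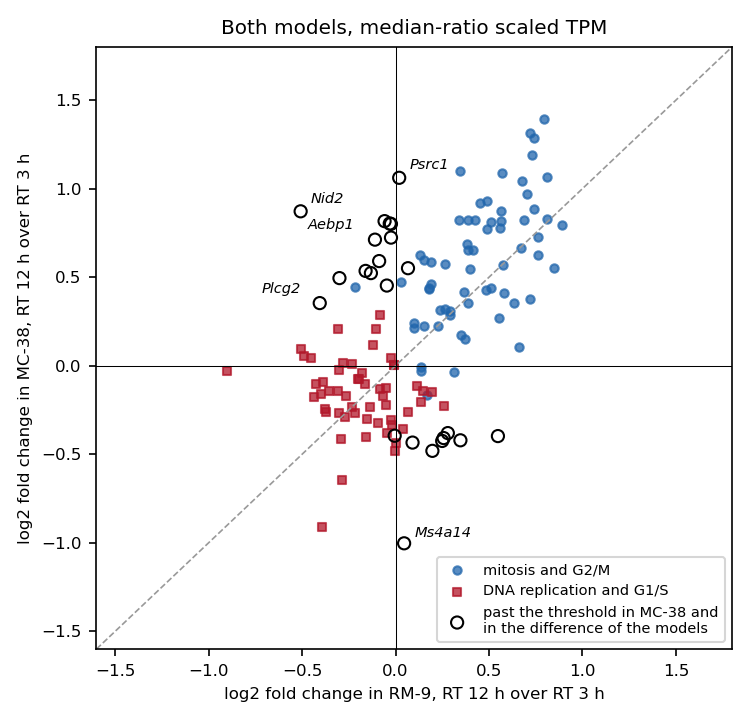
Log2 fold change from RT 3 h to RT 12 h in MC-38 (vertical) against RM-9 (horizontal), median-ratio scaled, for the mitosis and G2/M genes (circles), the DNA replication and G1/S genes (squares) and the 23 genes past the threshold in MC-38 and in the difference of the models (open circles). The dashed line marks equal change, and most mitotic genes lie to the upper right, with medians of 0.58 in MC-38 and 0.42 in RM-9, while Psrc1, Nid2 and Aebp1 lie above the line near or left of 0 in RM-9.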

How the data were processed

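RNA of tumor pieces from 31 mice was sequenced by stranded mRNA-Seq (single-end, 75 bases). The authors deposited, for each library, a table of TPM, FPKM and coverage per transcript group. The submitters' processing notes name bcl2fastq 2.17 and build GRCm39, while the coordinates deposited in the files match the GRCm38 M21 annotation (91.1% of 45137 shared genes have the same start or end), and coordinates are given as in the files. The aligner and counting program are not given in the sources used here. The deposited TPM values were summed per gene identifier. The deposited coverage was used to estimate reads and in an alternative, and the deposited FPKM were not tested.

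Genes averaging 0.5 TPM or more across the 16 MC-38 libraries were tested on log2(TPM + 0.5) with limma 3.58.1 (R 4.3.3, eBayes with a trend, 4 group means, two-sided, Benjamini-Hochberg, threshold 0.05), as deposited and after median-ratio scaling. Fold changes are on that scale, which understates the change of low genes. Replicates are separate mice, and no 2 libraries held identical values. The difference between the models was an interaction contrast over 31 libraries with 8 group means. Library measures were compared by exact permutation tests (70 assignments, smallest possible p = 0.0286). The code was tested on simulated data.

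Named genes were, for each list, the members with the smallest p as deposited (2 for cell cycle, damage and immune lists, 1 for others), 27 fixed genes, and genes in counts of 5 or fewer. A further rule, for the 6 largest changes past the threshold under both scalings, found 0 genes, so 12 genes past the threshold under median-ratio scaling were added after their values were seen, as were other genes named from the 104 called. The members and lists were chosen with earlier results of these data known. Mouse numbers were not treated as pairs. Alternatives covered pseudocount, filter, scaling, groups in the fit, trend, fold threshold, replicate block and left-out mice.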

Additional observations from a re-analysis of the deposited data

Results flagged for a closer look

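Samples that stood apart from the rest of their group were sought in 222 sets of 4 values, by the gap of the highest or lowest mouse to its nearest neighbor over the range of the set. The sets are the 74 named genes and 37 list means in the RT 3 h and in the RT 12 h mice. They share the same mice, so they are not independent. The gap share passed Dixon's 95% critical value for 4 samples in 17 of them, where chance alone gives about 1 in 20. RT 3 h mouse 4 was highest of the 3 h mice in Ccnb1 (gap share 0.839, 81.8 TPM against 28.1 to 36.8 TPM), Hmmr (0.835), Cdk1 (0.908, 281 TPM against 107 to 123 TPM) and the endoplasmic reticulum chaperone gene Calr (0.948). In the same group, mouse 3 was highest in Lcn2 (0.956, 19.8 TPM against 4.42 to 5.09 TPM), mouse 1 was highest in Ccr7 (0.848), and mouse 2 was lowest in Casp1 (0.840) and in the MHC class I list mean (0.934).

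Among the 12 h mice, mouse 4 was highest in the skin keratinocyte list mean (gap share 0.948) and lowest in Ccnd1 (0.915, 212 TPM against 262 to 266 TPM). Mouse 3 was highest in Cd8a (0.959, 3.53 TPM against 1.53 to 1.61 TPM), in the T-cell list mean (0.903) and in the hemoglobin gene Hbb-bt (0.902). Mouse 1 was lowest in Cenpe (0.901) and in the p53 target list mean (0.836), and mouse 2 was highest in Bag3 (0.933) and lowest in the list mean of type I interferons and DNA sensing (0.941). The reason for these values was not tested.

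Of 71 named genes tested in both models, 5 changed differently in MC-38 and RM-9 under median-ratio scaling (limma interaction), beside 2.55% of all genes. Some of the 71 were named for their change in the same MC-38 mice. The difference of the log2 changes, MC-38 less RM-9, was 1.04 for Psrc1, 0.53 for E2f3, -0.99 for Ms4a14, -0.99 for Rps14 and -1.26 for mt-Nd3.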

How the results depend on the processing

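Of the 74 named genes (71 in the difference between the models), none that passed changed sign under the alternatives run, of which the median-ratio difference between the models had 1. As deposited no gene passed between 3 h and 12 h, so none could change sign there. Under median-ratio scaling no gene passed in every alternative, and the largest limma adjusted p was 0.139 for Plk1 and 0.177 for Fn1. As deposited, genes higher and lower numbered 0 and 0. They numbered 79 and 25 under median-ratio scaling, 60 and 11 without mitochondrially encoded genes, 61 and 16 from coverage shares, 44 and 4 without control mouse 1, 49 and 1 without mouse 4 of both groups, and 1 and 0 with no filter. Mitotic genes higher then numbered 33, 22, 21, 15 and 26 in the first 5 of these settings, and replication genes lower 8, 3, 3, 1 and 0. Leaving out 1 mouse gave 0 to 89 higher, 0 to 4 lower, 0 to 39 mitotic and 0 replication genes, RT 3 h mouse 4 giving each highest value.

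Under median-ratio scaling, 79 higher and 25 lower genes became 46 and 13 without a trend, 30 and 10 with no filter, 7 and 2 (Cxcl10 and Dph3) with only the 2 compared groups, 14 and 2 (Il1b and Ms4a14) at an absolute log2 fold change of at least 1, and 97 and 12 without mouse 4 of both groups. Mitotic genes numbered 33, then 19, 11, 0, 8 and 43, and replication genes 8, then 3, 4, 0, 0 and 5. Leaving out 1 mouse gave 0 to 136 higher, 0 to 39 lower, 0 to 47 mitotic and 0 to 9 replication genes. With the 2 compared groups alone, 54 mitotic genes were higher at an unadjusted limma p under 0.05, beside 3646 of all 15698 genes in either direction. The cause of these shifts was not tested.

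Mouse numbers did not pair the samples (correlations of deviations of -0.017, 0.416, 0.119 and -0.072, own number best for 1 of 4). With the replicate block, median-ratio calls were 36 higher and 7 lower, with 16 mitotic and 3 replication genes, and as deposited 0. The difference between the models gave 2785 genes as deposited, 392 under median-ratio scaling, 3428 with the replicate block, and 29 to 4294 with 1 mouse left out (447 under median-ratio scaling without MC-38 RT 3 h mouse 4). Differences in library measures (12 h minus 3 h) ranged from -3.42 to -0.829 percentage points for mt-Nd4l, -4.10 to -1.16 for all mitochondrial genes and 0.108 to 0.204 (log2) for the median gene. Depth limits genes near 1 TPM.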
